A study of Mus musculus with 30 samples.

Results

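The genes described here mark the stem cells at the base of the intestinal crypt or are targets of Wnt signalling in the crypt: Lgr5, Olfm4, Ascl2, Smoc2, Axin2, Rnf43, Sox9, Cd44, Ephb2 and Ephb3. Their probes were found by gene symbol in the array annotation, and each gene was read through its brightest probe over all arrays. Of the 10 genes, 9 had a probe, and 8 passed the filter on dim probes, among 13142 genes that passed it of 19057 with a probe. Expression was measured with Illumina beadchips in jejunal mucosa, scraped from a 2 cm piece of the middle small intestine of male C57BL/6 mice aged 11 to 12 weeks. The mice were not fasted and received a single intraperitoneal injection of exendin-4 (Ex-4, 10 nmol/kg), of Fgf7, also named keratinocyte growth factor and given as the recombinant human protein (1 mg/kg), or of phosphate-buffered saline (PBS). Ex-4 is a peptide agonist of the glucagon-like peptide 1 receptor, and the receptor of Fgf7 is an epithelial isoform of Fgfr2. Ex-4, Fgf7 and PBS groups were each taken at 1 h (n = 3), 5 h (n = 4) and 20 h (n = 3), which makes 9 groups and 30 arrays. All groups share the strain, sex and feeding state, each agent was given at a single dose, and the labels name no pooling of mice. No label says outright that each array is another mouse, so p-values refer to the spread from sample to sample.

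Crypt base columnar stem cells divide continuously and renew the epithelium of the villus. Wnt ligands, which bind Frizzled and Lrp receptors, stabilise beta-catenin, and beta-catenin bound to TCF/LEF factors then activates target genes. R-spondins bind Lgr5 and its relatives and raise Wnt sensitivity by clearing the ubiquitin ligases Rnf43 and Znrf3, which otherwise remove Frizzled from the cell surface. The pathway is most active at the crypt base, where Paneth cells lie between the stem cells, and it fades towards the villus.

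The tissue label was checked against markers: Sis and Apoa4, enzyme and apolipoprotein of enterocytes, and Lyz1, lysozyme of Paneth cells, lay above the dim level on 30 of 30 arrays, whereas Fabp1, a fatty acid binding protein of enterocytes, was above it on 1 and Fabp2, its relative, was not kept by the filter on dim probes. The dim level of 7.18 (log2 signal) was set so that background probes would exceed it with a share of 0.01. Of the markers of the distal ileum, Slc10a2 was above it on 0 arrays, while Fabp6 was above it on 22 with a highest value of 7.45. Fgfr2 read 9.01 to 10.3, and Glp1r, the receptor of Ex-4, was above the dim level on 0 arrays. In this bulk tissue, fewer cells of a type and less RNA per cell cannot be told apart. Some arrays stood apart in smooth muscle genes: the mean of 15 such genes, centred over all arrays, was 1.79 in replicate 3 of PBS at 1 h, 1.78 in replicate 3 of PBS at 5 h, 1.05 in replicate 2 of Fgf7 at 5 h and 0.79 in replicate 1 of Ex-4 at 5 h, against at most 0.176 on the other arrays.

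Olfm4, Sox9, Axin2, Cd44 and Rnf43 were above the dim level on 30 of 30 arrays, Lgr5 on 27, Ascl2 on 24 and Smoc2 on 6. Ephb2, a receptor that positions cells along the crypt with its relative Ephb3, had no annotated probe. Ephb3 read 6.85 to 7.19, was above the dim level on 1 array and was not tested. Lgr5, Ascl2, Smoc2 and Rnf43 lay near background, where a signal difference understates a change in RNA. Levels are not compared between genes because each probe has its own brightness.

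Promoters of the members on which the results turn, where the RefSeq table held one, show what stands upstream of these genes. Each window holds the 250 bases before the annotated start (GRCm38.p6), 5′ to 3′ on the strand of the gene, with GC boxes (GGGCGG) and CCAAT boxes in capitals; ATTGG is a CCAAT box on the opposite strand. The Olfm4 window lies at chr14:80000052-80000301 on the plus strand, the Axin2 window at chr11:108920099-108920348 on the plus strand and the Cd44 window at chr2:102901666-102901915 on the minus strand.
Olfm4: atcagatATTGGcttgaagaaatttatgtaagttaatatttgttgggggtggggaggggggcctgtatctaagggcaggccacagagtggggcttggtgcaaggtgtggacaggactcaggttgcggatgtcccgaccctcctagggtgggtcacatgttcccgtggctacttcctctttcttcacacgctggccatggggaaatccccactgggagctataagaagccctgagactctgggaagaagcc
Axin2: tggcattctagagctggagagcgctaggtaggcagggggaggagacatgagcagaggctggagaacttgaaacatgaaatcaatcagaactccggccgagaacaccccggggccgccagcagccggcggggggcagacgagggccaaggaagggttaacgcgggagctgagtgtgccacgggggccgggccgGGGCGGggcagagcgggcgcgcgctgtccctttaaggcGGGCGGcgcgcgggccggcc
Cd44: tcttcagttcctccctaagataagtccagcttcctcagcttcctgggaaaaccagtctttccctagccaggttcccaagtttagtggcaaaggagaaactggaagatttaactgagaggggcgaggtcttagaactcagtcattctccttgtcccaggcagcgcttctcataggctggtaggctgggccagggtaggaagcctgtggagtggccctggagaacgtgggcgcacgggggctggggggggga
The Axin2 window had a GC content of 69.2% with 2 GC boxes, the Olfm4 window 54.0% with 1 CCAAT box, and the Cd44 window 56.4% with neither. Among the 8 windows of the 7 members in the table, none held a TCF/LEF core, searched on either strand as CTTTGAA, and also as CTTTGAT, and further as CTTTGTA, and lastly as CTTTGTT, against 14.8% of all 32851 windows of the same length. A GC box was present in 3 of the 8 windows against 32.7% of all, a CCAAT box in 3 against 33.9%, and TATAAA in 0 against 12.4%. The letters describe these windows only.

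Among the 8 tested members, Olfm4 spread furthest over the 30 arrays. Olfm4 encodes olfactomedin 4, a secreted glycoprotein used as a marker of crypt base stem cells, and its log2 signal had a lowest value of 9.15, a median of 10.6 and a highest value of 11.50, a 5.08-fold range. Its SD of 0.547 stood at percentile 99.5 of all genes tested. Sox9 (SD 0.261), Cd44 (SD 0.235) and Axin2 (SD 0.216) followed at percentiles 94.4, 92.6 and 90.7. Lgr5, Ascl2, Rnf43 and Smoc2 had SDs of 0.125, 0.112, 0.0989 and 0.0745, from percentile 59.7 down to percentile 9.65. For Olfm4 the spread lay mostly within groups, with a within-group SD of 0.535 against an SD of 0.321 between the 9 group means. Sox9 had 0.211 within and 0.199 between, Axin2 0.18 and 0.156, Cd44 0.198 and 0.16, and Rnf43 0.0795 and 0.0742. The plot of each array's signal shows these spreads.

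**Figure D1:**
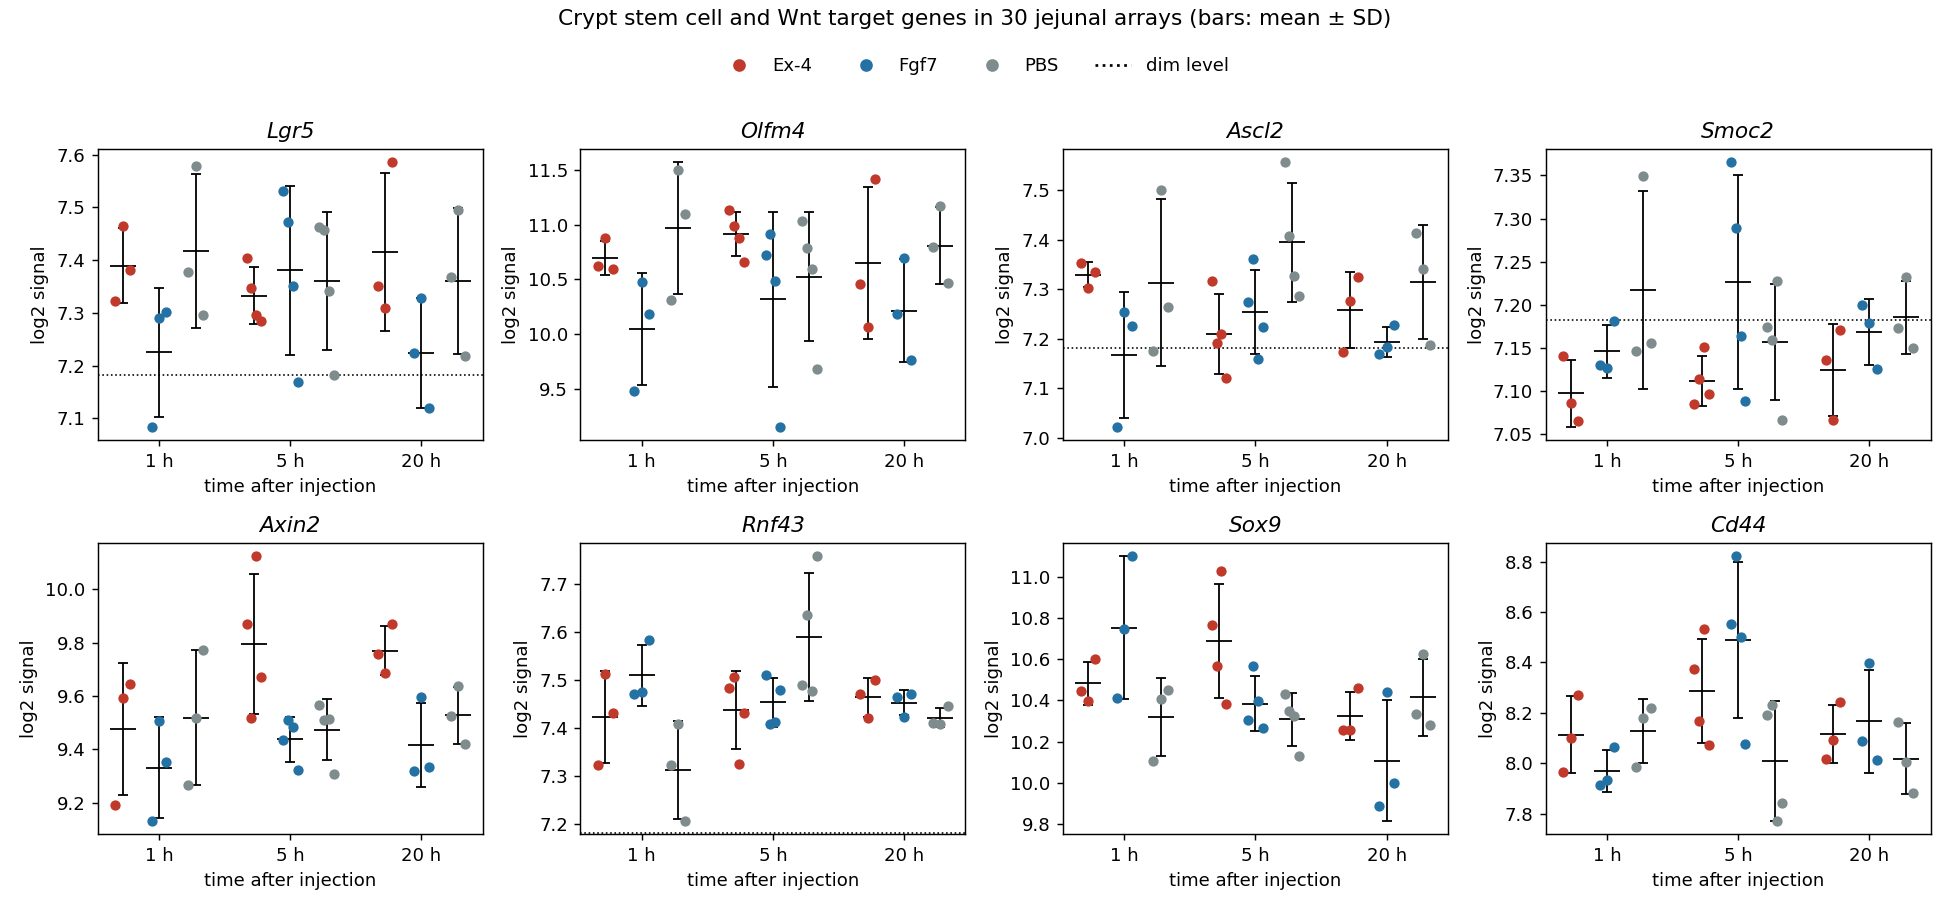
Log2 signal of the 8 tested members (vertical axis) at 1, 5 and 20 h, for Ex-4, Fgf7 and PBS arrays; points are arrays, bars the mean ± SD and the dotted line the dim level of 7.18. Olfm4 ranges most, with single low arrays such as the 9.15 of Fgf7 at 5 h, while Smoc2, Ascl2 and Lgr5 stay close to the dim level.

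Lgr5, the R-spondin receptor that marks crypt base stem cells, stayed within a narrow band. At 1 h it read 7.32, 7.46 and 7.38 after Ex-4, 7.08, 7.29 and 7.30 after Fgf7, and 7.38, 7.58 and 7.30 after PBS. The lowest Fgf7 array was below the dim level and the groups overlapped between each agent and PBS. At 5 h it read 7.40, 7.35, 7.30 and 7.28 after Ex-4, 7.53, 7.47, 7.35 and 7.17 after Fgf7, and 7.46, 7.46, 7.34 and 7.18 after PBS. At 20 h the values were 7.35, 7.31 and 7.59 after Ex-4, 7.22, 7.33 and 7.12 after Fgf7, and 7.37, 7.49 and 7.22 after PBS. At neither time did an agent stand clear of PBS. The 9 group means ran between 7.22 ± 0.10 in Fgf7 at 20 h and 7.42 ± 0.15 in PBS at 1 h (SD, n = 3 each), and 0 of the 8 pairs of neighbours in that order differed beyond their spread. Such counts set only adjacent means against the larger of their SDs, and do not compare the highest with the lowest. No share over all genes was computed for them.

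Olfm4 differed widely between arrays of the same group and gave, at 1 h after Fgf7, the largest difference of the 8 members. At 1 h it read 10.62, 10.87 and 10.59 after Ex-4, 9.48, 10.48 and 10.18 after Fgf7, and 10.31, 11.50 and 11.10 after PBS. At 5 h it read 11.13, 10.99, 10.88 and 10.66 after Ex-4, 10.72, 10.92, 10.48 and 9.15 after Fgf7, and 11.03, 10.79, 10.60 and 9.68 after PBS. The lowest Fgf7 and PBS arrays at 5 h lay well under the other arrays of their groups. At 20 h the values were 10.46, 10.07 and 11.42 after Ex-4, 10.18, 10.70 and 9.76 after Fgf7, and 10.79, 11.17 and 10.47 after PBS, with overlap throughout. In the order of group means, PBS at 1 h (10.97 ± 0.60) was highest and Fgf7 at 1 h (10.05 ± 0.51) lowest (SD, n = 3 each), and 0 of 8 neighbours differed beyond their spread.

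Ascl2, a basic helix-loop-helix factor needed by crypt stem cells, read 7.35, 7.30 and 7.33 after Ex-4, 7.02, 7.25 and 7.23 after Fgf7, and 7.17, 7.50 and 7.26 after PBS at 1 h. At 5 h it read 7.32, 7.19, 7.21 and 7.12 after Ex-4, 7.27, 7.36, 7.16 and 7.22 after Fgf7, and 7.56, 7.41, 7.33 and 7.29 after PBS. The PBS arrays at 5 h had the highest mean of the 9 groups (7.39 ± 0.12, n = 4), and 1 Ex-4 array and 1 Fgf7 array reached into their range. At 20 h its values lay between 7.17 and 7.32 after Ex-4, between 7.17 and 7.23 after Fgf7, and between 7.19 and 7.41 after PBS. Smoc2, a matricellular protein expressed in these stem cells, lay between 7.07 and 7.37 on all arrays and mostly under the dim level, so its differences are bounded by background.

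Axin2, a scaffold of the complex that degrades beta-catenin and itself induced by Wnt signalling, was highest on the Ex-4 arrays at 5 and 20 h. At 5 h it read 9.87, 9.52, 10.13 and 9.67 after Ex-4, 9.44, 9.51, 9.48 and 9.32 after Fgf7, and 9.57, 9.51, 9.51 and 9.31 after PBS. All 4 Ex-4 arrays were above all Fgf7 arrays, and 1 of them was within the PBS range. At 20 h it read 9.76, 9.69 and 9.87 after Ex-4, 9.32, 9.60 and 9.33 after Fgf7, and 9.52, 9.64 and 9.42 after PBS, with all 3 Ex-4 arrays above all others of that time. At 1 h the groups overlapped, with values between 9.19 and 9.64 after Ex-4, between 9.13 and 9.51 after Fgf7, and between 9.27 and 9.77 after PBS. In the order of its group means, 1 of 8 neighbours differed beyond their spread.

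Rnf43, the ubiquitin ligase that removes Frizzled receptors, was read through a probe close to background. At 1 h it read 7.32, 7.51 and 7.43 after Ex-4, 7.47, 7.48 and 7.58 after Fgf7, and 7.32, 7.41 and 7.21 after PBS, so the Fgf7 arrays were all above the PBS arrays. At 5 h the order turned: it read 7.48, 7.51, 7.33 and 7.43 after Ex-4, 7.51, 7.41, 7.41 and 7.48 after Fgf7, and 7.49, 7.64, 7.48 and 7.76 after PBS. At 20 h all 9 values lay between 7.41 and 7.50. The PBS groups themselves gave the highest mean at 5 h (7.59 ± 0.13, n = 4) and the lowest at 1 h (7.31 ± 0.10, n = 3).

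Sox9, a transcription factor of the crypt base that Paneth cells need to form, read 10.45, 10.40 and 10.60 after Ex-4, 10.41, 10.75 and 11.10 after Fgf7, and 10.10, 10.41 and 10.45 after PBS at 1 h. The 2 highest values were Fgf7 arrays, and the third Fgf7 array lay within the PBS range. At 5 h it read 10.77, 10.57, 11.03 and 10.38 after Ex-4, 10.31, 10.57, 10.40 and 10.26 after Fgf7, and 10.43, 10.35, 10.32 and 10.13 after PBS, with 3 of 4 Ex-4 arrays above every PBS array. At 20 h it read 10.26, 10.26 and 10.46 after Ex-4, 9.88, 10.44 and 10.00 after Fgf7, and 10.33, 10.63 and 10.28 after PBS. Fgf7 gave both its highest group mean, 10.75 ± 0.35 at 1 h, and its lowest, 10.11 ± 0.29 at 20 h (SD, n = 3 each). In the order, 0 of 8 neighbours differed beyond their spread, a count that does not compare these 2 means.

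Cd44, a hyaluronan receptor of crypt and immune cells, was highest on Fgf7 arrays at 5 h. It then read 8.38, 8.17, 8.53 and 8.07 after Ex-4, 8.55, 8.82, 8.50 and 8.08 after Fgf7, and 8.19, 8.23, 7.77 and 7.84 after PBS. Of the 4 Fgf7 arrays, 3 were above every PBS array, and the fourth lay within the PBS range. At 1 h its values lay between 7.97 and 8.27 after Ex-4, between 7.91 and 8.06 after Fgf7, and between 7.98 and 8.22 after PBS. At 20 h they lay between 8.02 and 8.24 after Ex-4, between 8.01 and 8.40 after Fgf7, and between 7.88 and 8.17 after PBS.

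After Ex-4, Axin2, Sox9 and Cd44 read higher than in the time-matched PBS group at 5 h, and Ascl2 and Rnf43 lower, but none passed: 0 of 8 members had an adjusted p under 0.05 in limma's moderated test at 1, 5 or 20 h. Over all genes tested, the share that passed was 0% at 1 h, 0.905% at 5 h and 2.3% at 20 h. At 5 h, 5 of the 8 members had an unadjusted p under 0.05, against 11.3% of all genes, although the arrays of Ex-4 and PBS overlapped for all 8 (without overlap: 5.9% of all genes). At 20 h no member had such a p, against 12.2%. The 5 at 5 h went different ways. Axin2 was 0.32 ± 0.12 higher (log2 difference ± SE, 95% interval 0.08 to 0.57, adjusted p = 0.247), Sox9 0.38 ± 0.14 higher (0.09 to 0.67, adjusted p = 0.235) and Cd44 0.28 ± 0.13 higher (0.01 to 0.55, adjusted p = 0.421). Ascl2 had a difference of -0.18 ± 0.07 (-0.33 to -0.04, adjusted p = 0.287) and Rnf43 one of -0.15 ± 0.06 (-0.28 to -0.03, adjusted p = 0.288). Those on the higher side were 3 of 8 against 5.51% of all genes, and those on the lower side 2 of 8 against 5.79%. Lgr5, whose interval ran from -0.20 to 0.15 around -0.03 ± 0.09, and Olfm4, with 0.39 ± 0.34 (-0.32 to 1.10), were not among them. The members' median difference was 0.12 with 4 of 8 above 0, against a median of 0.00 over all genes.

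Marker genes of other cells were read on the same arrays. At 5 h the centred mean of the Paneth cell markers was 0.01 to 0.32 on Ex-4 arrays and -0.30 to 0.07 on PBS arrays, with 5 of 6 markers above PBS. For proliferation markers it was 0.04 to 0.21 on Ex-4 arrays and -0.22 to 0.01 on PBS arrays, with 15 of 15 above PBS, of which Nusap1, a spindle protein, passed with 0.58 ± 0.13 (adjusted p = 0.0345). The call of Nusap1 was kept in 1 of 8 fits without 1 array; with the 4 smooth-muscle-rich arrays left out it had 0.54 (adjusted p = 0.184). A second Nusap1 probe gave 0.03 ± 0.06. The centred mean of the enterocyte markers was -0.16 to 0.14 on Ex-4 arrays and -0.03 to 0.21 on PBS arrays, with 3 of 12 above PBS. Macrophage and dendritic cell markers lay above PBS for 10 of 10, with a median of 0.23 and centred means of 0.17 to 0.26 on Ex-4 arrays and -0.48 to 0.31 on PBS arrays. Markers of B and plasma cells lay above PBS for 6 of 6 (median 0.11), and those of smooth muscle for 0 of 15 (median -0.21). With the Paneth cell mean as a covariate, the Ex-4 difference at 5 h was 0.19 for Axin2, 0.22 for Sox9, 0.14 for Cd44, -0.14 for Olfm4, -0.24 for Ascl2, -0.12 for Lgr5, -0.13 for Rnf43 and -0.09 for Smoc2, and none passed. With it, Nusap1 had 0.47 (adjusted p = 0.155). With the 4 smooth-muscle-rich arrays left out, Cd44 had 0.17 (adjusted p = 0.721). Whether cell composition has a part in these differences was not tested.

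The second probe of Sox9, which tracked the chosen one with r = 0.87 over the 30 arrays, gave 0.32 ± 0.11 for Ex-4 against PBS at 5 h. The second probe of Ascl2 gave -0.13 ± 0.07, in the same direction as the chosen probe. Rnf43 had a second probe that did not follow the chosen one (r = -0.24) and gave -0.04 ± 0.05. Its differences therefore rest on a single probe. Those of Axin2 and Smoc2 do too, as each has 1 annotated probe. At 20 h Axin2 was the only member whose Ex-4 and PBS arrays did not overlap, 1 of 8 against 15.1% of all genes, with a difference of 0.24 ± 0.14 (-0.04 to 0.53, adjusted p = 0.523). Lgr5 at 20 h had 0.05 ± 0.10 (-0.15 to 0.26) and Olfm4 -0.16 ± 0.40 (-0.98 to 0.65). At 1 h no member had an unadjusted p under 0.05, against 2.92% of all genes, and the lowest was 0.0703, for Smoc2, which was the only one without overlap (against 9.96% of all genes) and was above the dim level on 0 Ex-4 arrays and 1 PBS array.

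After Fgf7, Olfm4 read lower and Sox9 and Rnf43 higher than in PBS at 1 h, and Cd44 higher at 5 h, but 0 of 8 members passed in limma's test at 1, 5 or 20 h, against 0.00761%, 0.213% and 0.0457% of all genes. At 1 h, 3 of 8 had an unadjusted p under 0.05, against 7.59% of all genes. Olfm4 was lower, at 0.53 times the PBS mean (log2 difference -0.92 ± 0.40, -1.74 to -0.11, adjusted p = 0.635). Between arrays of the same replicate number the Olfm4 difference was -0.83, -1.02 and -0.92, so Fgf7 was lower in 3 of 3 pairs, and with the replicate number as a block its adjusted p was 0.354. Ascl2, Axin2 and Cd44 were also lower in 3 of 3 pairs, and Sox9 and Rnf43 were higher in 3 of 3. The share over all genes was not computed, so these counts do not set the members apart from other genes. Sox9 was higher by 0.43 ± 0.16 (0.10 to 0.76, adjusted p = 0.635) and Rnf43 by 0.20 ± 0.07 (0.06 to 0.34, adjusted p = 0.611). Rnf43 was also the only member without overlap, 1 of 8 against 14.9% of all genes. The second probes did not share these values, with 0.12 ± 0.13 for Sox9 and -0.03 ± 0.06 for Rnf43. The second Olfm4 probe, above the dim level on 4 arrays, gave -0.07 ± 0.07. Lgr5 had -0.19 ± 0.10 (-0.39 to 0.01) and Ascl2 -0.15 ± 0.08, and 2 of the 8 members lay above 0, with a median of -0.15 against 0.00 over all genes.

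At 1 h stromal and muscle markers also read lower on Fgf7 than on PBS arrays, and PBS replicate 3 was an array of high smooth muscle signal. Fibroblast and matrix genes lay below PBS for 16 of 16, with a median of -0.33, and smooth muscle genes for 15 of 15, with a median of -0.80. Over all genes, 50.4% lay above PBS. In both lists 0 genes passed, and the centred means of the 2 groups overlapped. The centred Paneth cell mean ran from -0.55 to 0.16 on Fgf7 arrays and from -0.39 to 0.20 on PBS arrays. Replicate 1 held the lowest Paneth cell value in both groups and also the lowest Olfm4 value. With the 4 smooth-muscle-rich arrays left out, the Fgf7 difference at 1 h was -0.86 for Olfm4, 0.50 for Sox9 and 0.14 for Rnf43. Whether tissue composition has a part in these values was not tested.

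At 5 h after Fgf7, Cd44 had the smallest p among the members, with 0.48 ± 0.13 (1.39-fold, 95% interval 0.21 to 0.75, unadjusted p = 0.00114, adjusted p = 0.187). It passed when replicate 4 of Fgf7 at 5 h was left out, with 0.62 ± 0.12 and an adjusted p of 0.0177, in a fit in which 0.601% of all genes passed; that array also held the lowest Paneth cell mean of its group, -0.68. With the 4 smooth-muscle-rich arrays left out, 1 of them from each group, the difference was 0.29 with an adjusted p of 0.903. Rnf43 was the other member with an unadjusted p under 0.05, with -0.14 ± 0.06 (adjusted p = 0.638), which makes 2 of 8 against 6.86% of all genes. No member was without overlap at 5 h, against 3.24%. Lgr5 had 0.02 ± 0.09 (-0.16 to 0.20), Ascl2 -0.14 ± 0.07 and Olfm4 -0.21 ± 0.34 (-0.91 to 0.50).

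Cd44 is represented by 9 probes, of which the second brightest, singled out after its values were seen, followed the chosen one with r = 0.63. At 5 h it read 7.78, 7.88, 8.07 and 7.94 after Ex-4, 8.03, 8.25, 8.39 and 8.13 after Fgf7, and 7.90, 7.61, 7.75 and 7.72 after PBS. All 4 Fgf7 arrays were above all PBS arrays. In a limma fit of all 26448 probes kept, its Fgf7 difference was 0.46 ± 0.08 with an adjusted p of 0.0171, against 0.113% of all probes that passed in this comparison, and it was the only one of 16 member probes that passed in any comparison. It passed in 4 of 8 fits without 1 array, with differences of 0.39 to 0.51 and adjusted p up to 0.137. With the 4 smooth-muscle-rich arrays left out it gave 0.44 with an adjusted p of 0.229. The third brightest Cd44 probe, above the dim level on 13 arrays, gave 0.06 ± 0.05.

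At 20 h after Fgf7 no member had an unadjusted p under 0.05 in the main fit, against 4.03% of all genes. None was without overlap, against 9.36%. With the replicate number as a block, limma's test gave Sox9 an unadjusted p of 0.0325 (adjusted p = 0.999) and Olfm4 one of 0.0657. The share of all genes with an unadjusted p under 0.05 in that fit was not computed. Olfm4 (-0.59 ± 0.40, -1.41 to 0.22), Sox9 (-0.31 ± 0.16, -0.64 to 0.02) and Lgr5 (-0.14 ± 0.10, -0.34 to 0.07) lay on the lower side, and their adjusted p was 0.999. Between arrays of the same replicate number, the difference was -0.61, -0.47 and -0.70 for Olfm4 and -0.45, -0.19 and -0.28 for Sox9. Lgr5 and Axin2 were also lower in every pair, Rnf43 was higher in every pair, and the other members were mixed. The share of all genes with a single direction was not computed. The centred Paneth cell mean was -0.41 to -0.11 on these Fgf7 arrays and -0.00436 to 0.186 on PBS arrays, without overlap. With this mean as a covariate, the differences at 20 h were 0.00 for Olfm4, -0.13 for Sox9 and -0.03 for Lgr5. As the covariate itself is separated between the groups, this fit cannot tell composition from treatment. Whether cell composition has a part in these differences was not tested. The plot of differences from PBS gives all members at the 3 times.

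**Figure D2:**
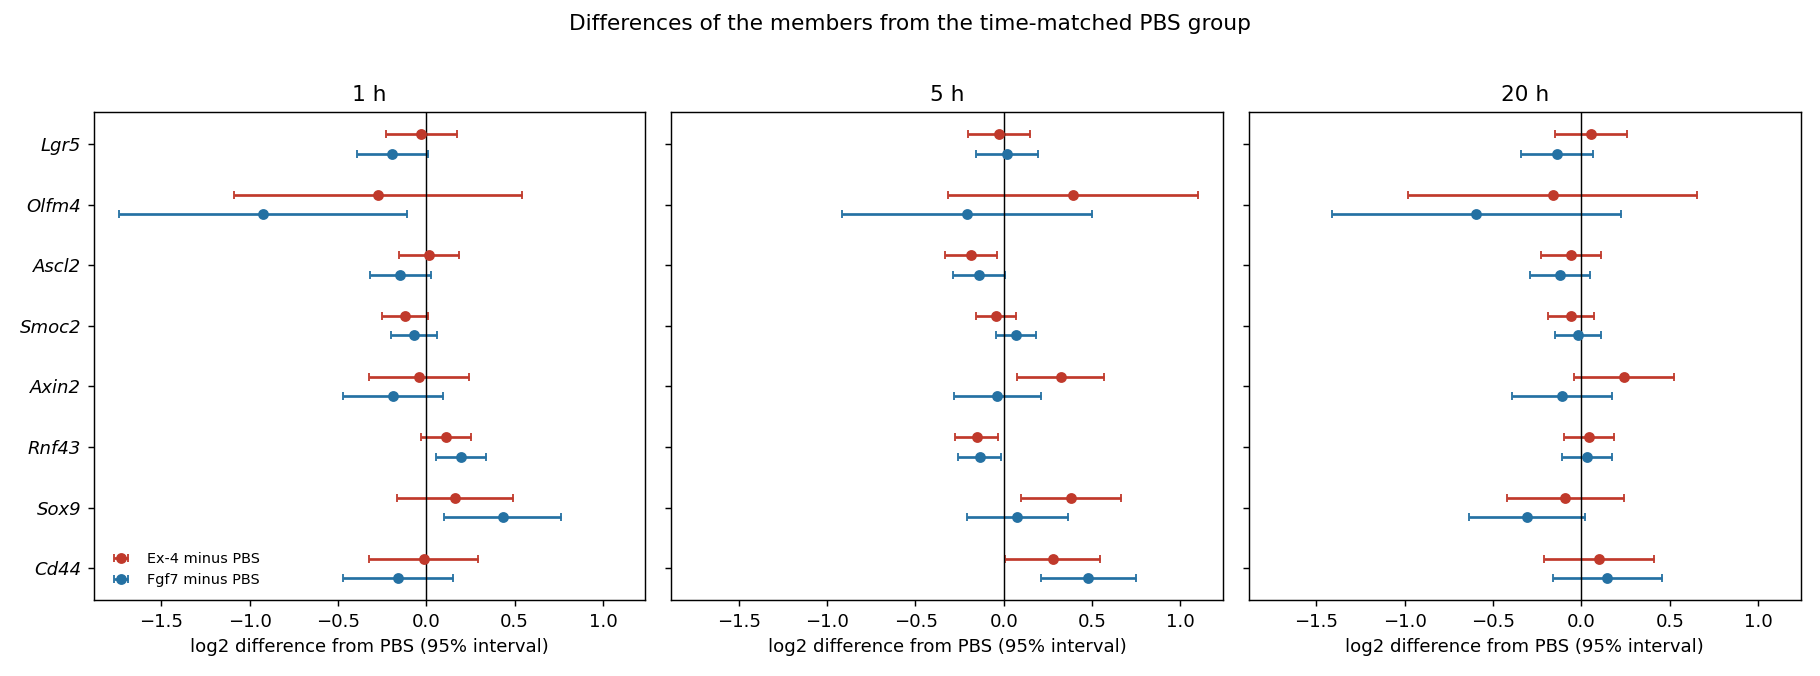
Log2 difference from the time-matched PBS group (horizontal axis, with 95% interval) for 8 members at 1, 5 and 20 h, Ex-4 above Fgf7 in each row. Olfm4 has the widest intervals, and Cd44 at 5 h after Fgf7 lies at 0.48 (0.21 to 0.75).

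Set directly against Fgf7, Ex-4 gave higher values of Axin2 at 5 and 20 h, while 0 of 8 members passed in limma's test at 1, 5 and 20 h, against 0.00761%, 0.555% and 1.76% of all genes. Axin2 was the member with the smallest p at 5 h, higher after Ex-4 than after Fgf7 by 0.36 ± 0.12 (0.11 to 0.60, adjusted p = 0.215), and again at 20 h by 0.35 ± 0.14 (0.07 to 0.64, adjusted p = 0.303). Its arrays did not overlap between the agents at either time, 1 of 8 against 5.08% of all genes at 5 h and 13.6% at 20 h. At 5 h, 3 of 8 members had an unadjusted p under 0.05 (Axin2, Sox9 and Smoc2) against 9.7% of all genes, and at 20 h 1 of 8 against 9.72%. Smoc2 was lower after Ex-4 at 5 h, with -0.12 ± 0.05, and was above the dim level on 0 Ex-4 and 2 Fgf7 arrays. Sox9 was higher after Ex-4 by 0.30 ± 0.14 at 5 h (adjusted p = 0.472), and its second probe by 0.38 ± 0.11. At 1 h no member had such a p, against 5.74% of all genes, although Lgr5, Ascl2 and Olfm4 did not overlap, 3 of 8 against 13.4%. Their differences at 1 h, all on the higher side after Ex-4, were 0.16 ± 0.10, 0.16 ± 0.08 and 0.65 ± 0.40. These comparisons share their arrays with those against PBS.

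Across all 9 groups, a moderated F-test found a difference for 0 of 8 members, against 5.93% of all genes. At an unadjusted p under 0.05 there were 4 of 8 against 19.4% of all genes: Sox9 (adjusted p = 0.0988), Axin2 (adjusted p = 0.148), Cd44 (adjusted p = 0.168) and Rnf43 (adjusted p = 0.194). With the replicate number as a block, Sox9 (adjusted p = 0.0187), Cd44 (adjusted p = 0.0202) and Axin2 (adjusted p = 0.0480) passed, 3 of 8 against 9.95% of all genes in that fit. Sox9 or Cd44 also passed in single fits without Fgf7 arrays, namely Sox9 without replicate 1 at 1 h (adjusted p = 0.0354) or replicate 2 at 20 h (adjusted p = 0.0370), and Cd44 without replicate 4 at 5 h (adjusted p = 0.0289). In these 3 fits 5.46%, 5.62% and 6.67% of all genes passed. The effect of Ex-4 differed between times for 0 of 8 members against 0.989% of all genes, with an unadjusted p under 0.05 for 1 (Rnf43) against 9.84%. The effect of Fgf7 differed between times for 0 of 8 against 0.0228%, with such a p for 3 (Sox9, Cd44 and Rnf43) against 4.96%. Between the PBS times, 0 of 8 passed against 0% of all genes, and Rnf43 was the 1 member with such a p, 0.000739 (adjusted p = 0.54), against 4.59%.

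Within groups many of the members varied together from array to array, and Rnf43 did so with none of them. Each array's deviation from its group mean was correlated over the 30 arrays for the 28 pairs of members, with permutation within groups, and 16 pairs passed after adjustment over the 28 for both Pearson's r and Spearman's rho. Lgr5 and Olfm4 gave r = 0.89 and rho = 0.90 (permutation p = 2e-05 and 1e-05, of which 1e-05 is the smallest that 1e+05 permutations give; adjusted p = 0.00028 for both), and r was 0.86 without the 2 farthest arrays. Axin2 and Sox9 gave r = 0.74 and rho = 0.78 (adjusted permutation p = 0.0014 and 0.00103), and the r was 0.75 without the 2 farthest. Sox9 and Cd44 gave r = 0.68 and rho = 0.74 (adjusted permutation p = 0.00028 and 0.00042), and 0.66 without them. Olfm4 and Cd44 had r = 0.70, which was 0.58 without the 2 farthest, and Lgr5 had 0.72 with Smoc2 and 0.66 with Ascl2. The members thus differed between replicates of the same treatment in a shared way, as the plot of deviations shows for Lgr5 with Olfm4. The share of all gene pairs that would pass was not computed, so the 16 pairs do not set the members apart from other genes. Among the genes closest to the members' mean, the ribosomal protein gene Rpl12 and the colipase gene Clps followed it within groups with r = 0.93 and 0.92. Rnf43 had r of -0.30 to 0.12 with the other members, and none passed (adjusted permutation p of 0.273 or more).

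**Figure D3:**
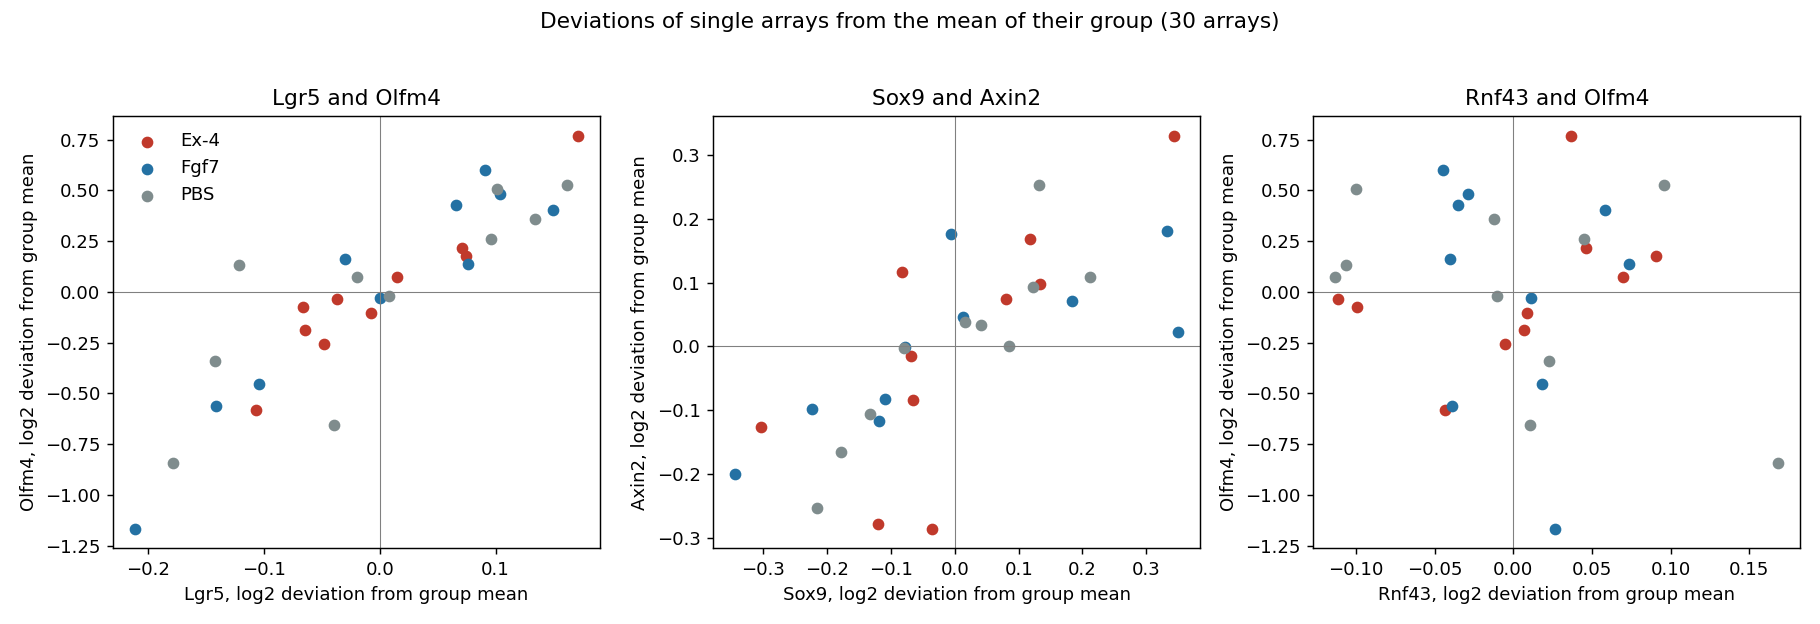
Deviation of each of the 30 arrays from its group mean, in log2 units on both axes, for Lgr5 with Olfm4, Sox9 with Axin2 and Rnf43 with Olfm4; points are arrays. The first 2 panels rise along a line (r = 0.89 and 0.74), and the panel of Rnf43 does not.

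The same deviations followed markers of crypt cells and also of macrophages and dendritic cells. They are given here as a description over the 30 arrays, which share their normalization. Olfm4 had r = 0.83 with the proliferation markers, 0.81 with the Paneth cell markers and -0.70 with the enterocyte markers. Cd44 had 0.76, 0.56 and -0.77 with these lists. Lgr5 had 0.69, 0.62 and -0.63. Sox9 had 0.64 with proliferation and 0.63 with Paneth cell markers, and Axin2 had 0.62 and 0.60. Macrophage and dendritic cell markers had r = 0.71 with Cd44, 0.61 with Olfm4, 0.60 with Lgr5, 0.55 with Sox9 and 0.50 with Ascl2. With Axin2, Smoc2 and Rnf43 they had 0.36, 0.25 and 0.01. Rnf43 had -0.17 with proliferation markers and -0.44 with smooth muscle markers. Arrays with more signal from stem cell genes thus also had more from Paneth cells, dividing cells, macrophages and dendritic cells, and less from enterocytes. Whether this is how much crypt a scraping held was not tested. Heat maps of these values cover all 8 members and 11 marker lists.

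**Figure D4:**
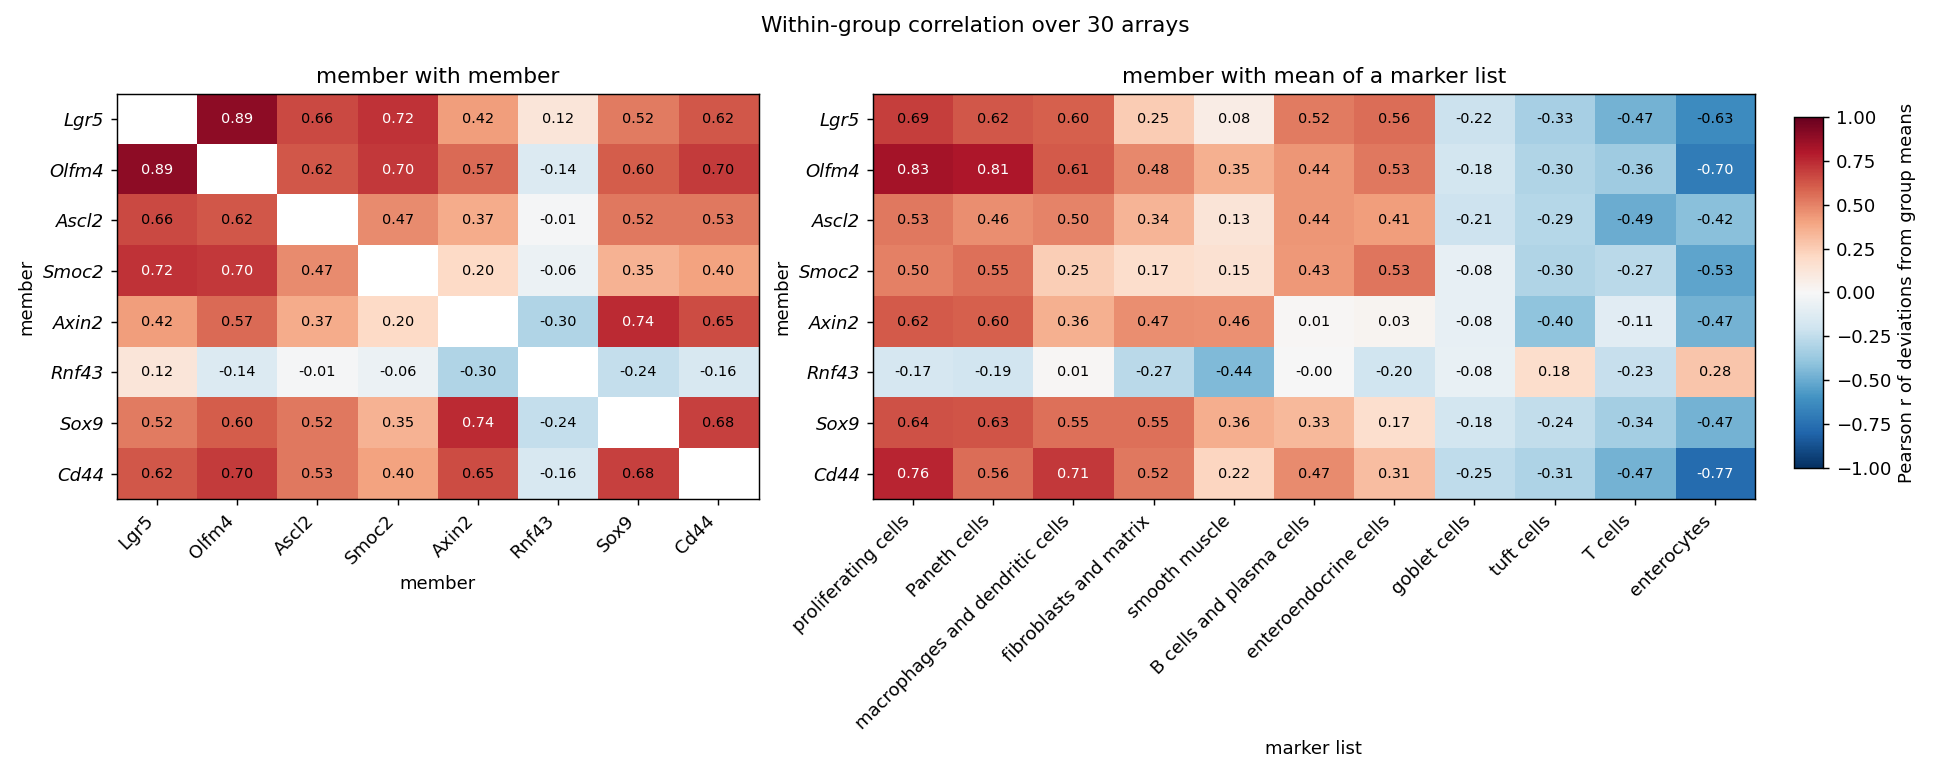
Pearson's r of within-group deviations over 30 arrays, between members (left) and between members and the means of 11 cell type marker lists (right); colour runs over -1 to 1. Rnf43 stays between -0.30 and 0.12 with the other members, and enterocyte markers run against Olfm4 (-0.70), Cd44 (-0.77) and Lgr5 (-0.63).

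Genes most like the members' mean over the 30 arrays were Rpl12 (r = 0.87), Ifitm2 (0.87), Clps (0.86), Lyz1 (0.85), Rps13 (0.85), Defa39 (0.85), Cps1 (0.85), Pnliprp2 (0.84), Cdca7 (0.84) and Ifitm1 (0.83). The 99th percentile of all genes was 0.70. The values in this mean were centred but not scaled, so Olfm4, with the largest SD (0.547), weighs most in it. Lyz1 and Defa39 are Paneth cell genes, a lysozyme and a defensin, Rpl12 and Rps13 encode ribosomal proteins, and Clps and Pnliprp2 encode a colipase and a lipase-related protein. For single members, the closest genes were Rbbp7 (0.81) for Lgr5, Cps1 (0.89) for Olfm4, Aqp4 (0.77) for Axin2 and Slc12a2 (0.75) for Sox9. The replication helicase subunit Mcm2 (0.88) and the uracil glycosylase Ung (0.85) were close to Cd44, with Dnah11 (0.85). Ascl2 was closest to the defensin gene Defa31 (0.71), and Smoc2 and Rnf43 had no gene above 0.70, with Med11 (0.70) and Sbf2 (0.62) as their closest.

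Other genes of the crypt base and of the Wnt pathway were read from lists chosen with earlier results of these data known. Of 25 other crypt base stem cell genes, 22 were tested and 0 passed in any of the 9 comparisons. Rgcc, a cell cycle regulator, was nearest at 5 h after Fgf7, with 0.61 ± 0.14 (adjusted p = 0.0686), and Tnfrsf19 gave -0.14 ± 0.06. Prom1, a membrane glycoprotein of stem and progenitor cells, gave 0.17 ± 0.07 at 5 h and 0.30 ± 0.08 at 20 h after Ex-4 (adjusted p = 0.369 and 0.0553). Hopx, a homeodomain protein used as a marker of reserve stem cells, gave -0.23 ± 0.08 at 5 h after Ex-4 (adjusted p = 0.241). The list's median at 5 h was 0.04 after Ex-4 with 15 of 22 above 0 and 0.03 after Fgf7 with 13 of 22, against 0.00 and 50.9% of all genes above 0 in both comparisons.

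Wnt ligands, R-spondins and receptors had 16 of 26 genes tested, and 0 passed in any comparison. At 5 h the ligand Wnt6 had -0.14 ± 0.06 after Ex-4 and -0.09 ± 0.06 after Fgf7, the receptor Fzd6 0.12 ± 0.08 after Ex-4, and Porcn, which acylates Wnt ligands, -0.10 ± 0.06 after Fgf7. The largest unadjusted results were at 1 h after Fgf7, with -0.23 ± 0.08 for the R-spondin Rspo3 and -0.25 ± 0.10 for Wnt5a (adjusted p = 0.635 each). Both were measured in the comparison in which all 16 fibroblast and matrix genes lay below PBS, and whether tissue composition has a part in them was not tested. Medians at 5 h were 0.00 after Ex-4 and -0.01 after Fgf7. Of the Wnt inhibitors and feedback genes, 11 of 17 were tested and 0 passed. At 5 h the inhibitor Nkd2 gave -0.29 ± 0.12 after Ex-4 and -0.19 ± 0.12 after Fgf7, Draxin 0.13 ± 0.08 after Ex-4, and Dkk4 0.18 ± 0.08 after Fgf7.

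Within the beta-catenin pathway core, 16 of 22 genes were tested and 1 passed, Tle1, a co-repressor of the Groucho family that binds TCF/LEF factors. At 5 h Tle1 read 10.98, 11.50, 11.68 and 11.39 after Ex-4, 10.49, 10.60, 10.85 and 10.94 after Fgf7, and 10.46, 10.42, 10.89 and 11.21 after PBS. All Ex-4 arrays were above all Fgf7 arrays, and 1 of them was under the highest PBS array. Tle1 rose 1.56-fold over PBS after Ex-4 (log2 difference 0.64 ± 0.16, adjusted p = 0.0472) and was 1.59-fold higher than after Fgf7 (0.67 ± 0.16, adjusted p = 0.0492). Of 8 fits without 1 array, 2 kept the first call and 1 the second. The differences were 0.83 (adjusted p = 0.0511) and 0.77 (adjusted p = 0.0671) once the 4 smooth-muscle-rich arrays were left out. Further probes of Tle1 gave 0.50 ± 0.10 and 0.69 ± 0.17 against PBS, and those close to the dim level 0.05 and 0.06. At 20 h the Ex-4 difference was -0.37 ± 0.18 (adjusted p = 0.428), and an F-test of the effect of Ex-4 between times gave an adjusted p of 0.0823. The list's medians at 5 h were -0.04 after Ex-4, with 5 of 16 above 0, and -0.03 after Fgf7, where the kinase Gsk3b gave -0.14 ± 0.05 and Dvl1 -0.18 ± 0.07.

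Of 19 other Wnt targets of the crypt, 15 were tested and 1 passed, Ccnd2, which encodes the G1 cyclin D2. At 5 h Ccnd2 read 11.44, 12.08, 11.83 and 11.71 after Fgf7 and 11.19, 11.19, 11.39 and 11.16 after PBS, without overlap. It rose 1.45-fold (log2 difference 0.53 ± 0.11, adjusted p = 0.0345), and the call was kept in 3 of 8 fits without 1 array. With the 4 smooth-muscle-rich arrays left out it was 0.48 with an adjusted p of 0.256. Further Ccnd2 probes gave 0.50 ± 0.15, 0.24 ± 0.12 and -0.05 ± 0.06. At 1 h the Fgf7 difference was 0.44 ± 0.13 (adjusted p = 0.538), and the test of its effect between times gave an adjusted p of 0.488. After Ex-4 at 5 h, the targets with the smallest p were Sp5 (-0.33 ± 0.12, adjusted p = 0.201), a zinc finger factor, and cyclin D1, Ccnd1 (0.37 ± 0.16, adjusted p = 0.366). The list's medians at 5 h were 0.00 after Ex-4 and -0.05 after Fgf7. Mmp7 and Tnfrsf19 stand in this list and also in those of Paneth cells and of stem cells.

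**Figure D5:**
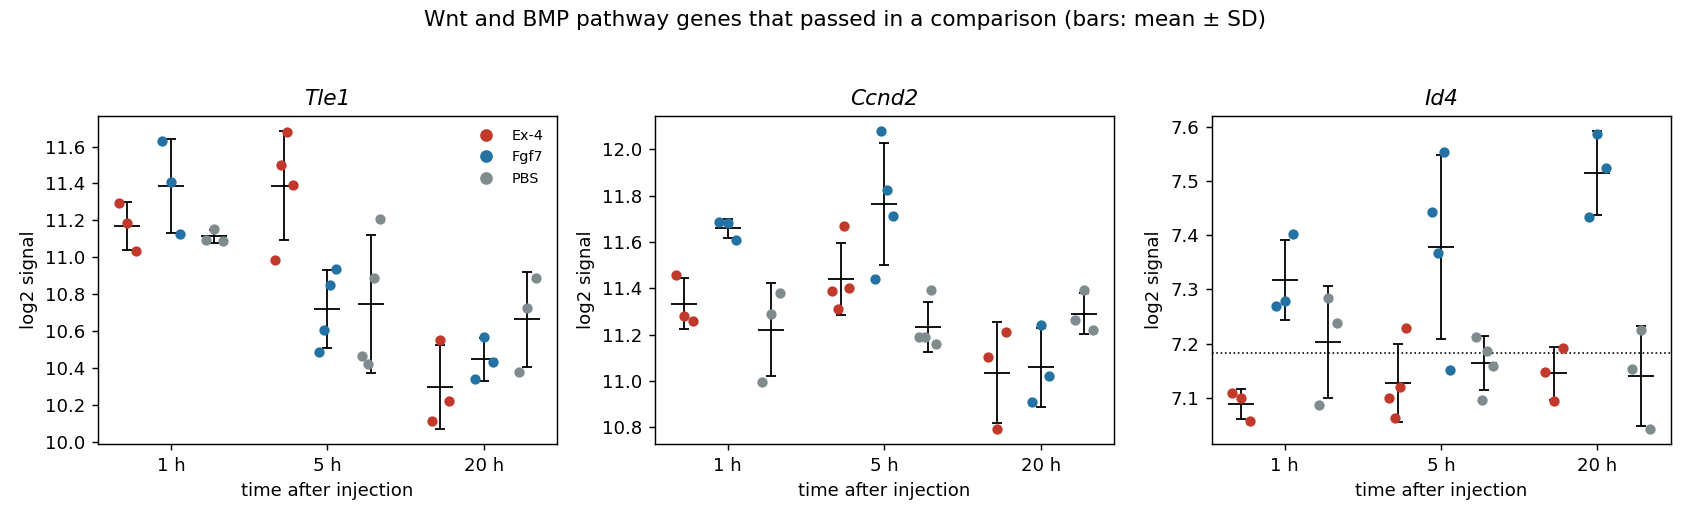
Log2 signal of Tle1, Ccnd2 and Id4 (vertical axis) at 1, 5 and 20 h for Ex-4, Fgf7 and PBS arrays; points are arrays, bars the mean ± SD and the dotted line the dim level. Tle1 is high on Ex-4 arrays at 5 h (10.98 to 11.68), Ccnd2 on Fgf7 arrays at 5 h (11.44 to 12.08) and Id4 on Fgf7 arrays at 20 h (7.43 to 7.59).

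Ephrins and Eph receptors other than Ephb2 and Ephb3 had 11 of 14 genes tested, and 0 passed against PBS. Efna1, an ephrin ligand, passed between the agents: at 5 h it read 9.89, 10.15, 10.26 and 10.16 after Ex-4 and 9.75, 9.49, 9.83 and 9.70 after Fgf7. It was 1.34-fold higher after Ex-4 (0.42 ± 0.09, adjusted p = 0.0335), without overlap, and 2 of 8 fits without 1 array kept the call. Efna1 had 0.43 (adjusted p = 0.0689) once the 4 smooth-muscle-rich arrays were left out. Against PBS at 5 h, Efna1 had 0.21 ± 0.09 after Ex-4, and the receptor Epha2 had -0.19 ± 0.09 after Ex-4 and -0.24 ± 0.09 after Fgf7. Notch genes had 12 of 18 tested and 0 that passed in any comparison. The Notch ligand Dll1 had -0.13 ± 0.07 at 5 h after either agent, and the modifier Mfng 0.16 ± 0.08 after Ex-4. In the BMP list, 13 of 19 were tested, 0 passed against PBS and 1 passed between the agents. An unadjusted p under 0.05 against PBS at 5 h was found for 2 of 22 other stem cell genes after Ex-4 and 3 after Fgf7, for 1 and 0 of 16 Wnt ligand and receptor genes, for 1 and 1 of 11 Wnt inhibitors, for 3 and 2 of 16 genes of the beta-catenin core, for 2 and 4 of 15 other Wnt targets, for 2 and 3 of 11 ephrin and Eph genes, for 0 and 0 of 12 Notch genes and for 0 and 2 of 13 BMP genes. The shares over all genes, 11.3% after Ex-4 and 6.86% after Fgf7, are the ones to read these counts against.

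That gene was Id4, an inhibitor of helix-loop-helix factors. At 20 h Id4 read 7.15, 7.09 and 7.19 after Ex-4, 7.43, 7.59 and 7.52 after Fgf7, and 7.15, 7.23 and 7.04 after PBS. The Fgf7 arrays stood above all others of that time, and 1 of 3 Ex-4 arrays was above the dim level. Id4 averaged 7.14 after Ex-4 and 7.52 after Fgf7, and counting Ex-4 arrays under the dim level at that level it was at least 1.26-fold lower after Ex-4 (adjusted p = 0.00658 in the fit), which 5 of 6 fits without 1 array kept; without replicate 2 of Fgf7 the adjusted p was 0.0506. Fgf7 against PBS at 20 h gave 0.38 ± 0.08 (adjusted p = 0.0756), and at 5 h 0.22 ± 0.07 (adjusted p = 0.301). A second probe gave -0.14 ± 0.05 between the agents at 20 h. Id3, its relative, had -0.32 ± 0.12 at 5 h after Fgf7 (adjusted p = 0.491).

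Among dividing cells, proliferation markers lay above PBS for 14 of 15 genes at 5 h after Fgf7, with a median of 0.19, and for 14 of 15 at 20 h after Ex-4, with a median of 0.18, yet 0 passed in either. The helicase subunits Mcm5 (0.63 ± 0.17, adjusted p = 0.177) and Mcm4 (0.43 ± 0.14, adjusted p = 0.375) had the smallest p at 5 h after Fgf7, the time at which Cd44 was highest. Goblet cell genes lay above PBS for 8 of 8 at 20 h after Fgf7, with a median of 0.26, and Paneth cell genes for 1 of 6, with a median of -0.34.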

How the data were processed

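The log2 signal of each probe was used as the authors deposited it. Its normalisation is not stated in the labels; equal array medians (7.14) are those of quantile-normalised values. Per the labels' protocols, Trizol RNA was amplified and labelled with an Illumina TotalPrep-96 kit. The annotation gives a single symbol for 34885 of the 45281 probes, several for 18 and none for 10378. The 26448 probes above the dim level of 7.18 on at least 3 of 30 arrays were kept (mode of all values 7.02, SD below it 0.0714), with the brightest probe for each of 13142 genes.

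limma fitted a mean per group and moderated the variances (21 residual degrees of freedom, 4.61 prior; the median of the residual SDs was 0.107). Comparisons used moderated tests, and differences among several groups used F-tests. The threshold was a Benjamini-Hochberg adjusted p of 0.05, taken over every gene tested. SEs and 95% intervals come from this fit, and folds keep the background that the deposited signal includes. The number of arrays limits the precision, and 0 arrays were identical. The members and all gene and marker lists were chosen with earlier results of these data known. Named list genes are those that passed or, where none did, up to 2 with the smallest p in a comparison, given for some lists and times only; a centred mean is a list's mean log2 signal after each gene's mean over 30 arrays was subtracted. Correlations of deviations were tested with 1e+05 permutations within groups.

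Replicate numbers come from the labels. Over 30 same-numbered pairs, deviations correlated with r of -0.18 to 0.65, 22 of them over 0.1 and 20 the best with their own number. Every pair was over 0.1 in 2 comparisons, Fgf7 against PBS at 1 h and at 20 h, and the replicate block there changed no member's call and gave 1 and 10 genes passing, against 1 and 6 without it.

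Alternatives changed the filter, probe choice, background, scaling, variance model, arrays and covariates. The Paneth cell covariate and the fits of the second Cd44 probe were chosen after seeing the data. The 60 columns of non-normalized intensities are headed by numbers that match no sample and were not used. The code was tested on simulated data. Versions were R 4.3.3, limma 3.58.1, data.table (version 1.17.8), Python 3.11.15 and matplotlib 3.10.9. Promoter windows are those of RefSeq, build GRCm38.p6.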

Additional observations from a re-analysis of the deposited data

How the results depend on the processing

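The number of members passing (0 in every comparison and F-test) was unchanged in 302 of 308 recomputed counts. The 6 exceptions were the F-test over all 9 groups, with 1 member (Sox9, with an adjusted p just under 0.05) with array weights, 3 with the replicate block (Axin2, Sox9 and Cd44), and 0 to 1 when 1 array was left out, and Fgf7 against PBS at 5 h, with 0 to 1 when 1 array was left out. Of all genes, 8.07% passed this F-test with array weights and 9.95% with the replicate block. In the fits without 1 array that called a member, 5.46%, 5.62% and 6.67% passed the F-test, and 0.601% passed for Fgf7 at 5 h. The members' differences kept their direction and their side of the threshold in 1359 of 1407 cases; 47 uncalled differences changed sign and 1, Cd44 without replicate 4 of Fgf7 at 5 h, passed. Cd44 at 5 h after Fgf7 was 0.20 to 0.77 over its alternatives, with the lowest value for the mean of those of its probes that passed the filter. The calls of Tle1, Nusap1, Ccnd2, Efna1 and Id4 were lost in 61 of 145 fits, without a change of direction. Genes passing moved by more than 1.5 times in 66 of 308 counts: without 1 array they were 37 to 134 for Ex-4 at 5 h, 134 to 316 for Ex-4 at 20 h and 8 to 79 for Fgf7 at 5 h, and in the fit of only the groups compared 13, 70 and 3. The replicate block gave 165, 415 and 47 for these comparisons, but it changed no member's call in a comparison between 2 groups. Signal close to background limits Lgr5, Ascl2, Smoc2 and Rnf43, for which intervals bound the signal difference and not that of the RNA. Normalisation of the non-normalized intensities by neqc was not run. The cause of these shifts was not tested.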
